A study of Mus musculus with 6 samples.

Results

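The array of B16 cells kept for 3 h in chronic hypoxia was compared with the array of B16 cells kept for 3 h in normoxia, 2 of the 6 arrays of the series. B16 is an established mouse melanoma line. All cells, controls included, had been in serum-free alpha MEM since 2 h before the exposure, and hypoxia meant less than 1% oxygen. The other 4 arrays held normoxia collected 1 h later (normoxia +1 h), chronic hypoxia followed by 1 h of reoxygenation, and cyclic hypoxia, which was 3 periods of 1 h with reoxygenation of 30 min between them, collected at its end or after 1 h of reoxygenation. The labels give 1 array for each group and name no separate cultures, so no difference has a replicate, an error or a test. The array held 22690 probe sets, of which 20380 named a single gene, for 12393 genes. The description rests on 3573 genes with a mean signal of 100 or more over the 6 arrays, each represented by its brightest probe set, and 28.8% of the named genes met this. Signals are intensities scaled to a common trimmed mean, and differences are log2 of the chronic hypoxia signal over the normoxia signal, so that 1 is a 2-fold difference. The second normoxia array, set against the first in the same way, shows how far a pair of arrays without hypoxia differed.

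Cells sense oxygen through prolyl hydroxylases that use it to mark the alpha subunits of the hypoxia-inducible factor (HIF) for destruction. Without oxygen HIF persists, binds DNA at a short core sequence and raises genes of glucose uptake, glycolysis, mitophagy and pH control. Severe hypoxia is also known to stress protein folding and to activate the integrated stress response, in which translation is slowed and the transcription factor ATF4 is made.

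The labelled cell type was checked first. Of 9 melanocyte markers 8 were named on the array, with signals of 231 to 7144, and their sum lay between 19249 and 25097 in the 6 arrays. The sums of the fibroblast, immune, endothelial and keratinocyte markers were 16.4 to 32.3, 17.3 to 34.2, 3.84 to 20.7 and 18.3 to 25.3. The array medians were 15.9 to 19.3, and 18.4% to 21.2% of values were under the floor of 2.1 units. The array after cyclic hypoxia and reoxygenation stood apart, with a mean correlation across genes of 0.917 with the other arrays against 0.953 to 0.961 for those, and its values below are given as measured. The ratio of the 3' to the 5' control probe set was 0.799 to 0.900 for Gapdh and 1.17 to 1.25 for actin, so these did not set the chronic hypoxia array apart. In such bulk RNA, fewer cells of a kind and less RNA per cell cannot be told apart.

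After chronic hypoxia 52 genes (1.46% of 3573) stood 2-fold or more above normoxia and 14 (0.392%) stood 2-fold or more below it. Without the chronic hypoxia array, 44 of the 52 still had a mean of 100 or more, so 8 entered through it and had to differ: Ccn1, Hspa1b, Fos, Malat1, Pvt1, Dnajb4, Med6 and Stam. Between the normoxia arrays the same counts were 0 (0%) and 1 (0.028%). The largest differences were those of Hk2 (2.95), Ero1a (2.70), Bnip3 (2.66) and Slc2a1 (2.38), which serve glycolysis, disulfide formation, mitophagy and glucose uptake. At 4-fold 11 genes were higher and 0 lower, and at 3-fold 18 and 2. Most genes differed little: 61.9% lay within 1.2-fold, against 81.1% between the normoxia arrays, and the SD over genes was 0.37 against 0.21. The median over all 3573 genes was 0.032. The values just past 2-fold were 1.02 for Stam and 1.03 for Atf4 on the higher side and -1.002 for Aldh9a1 on the lower side, while Atp6v1b2 (0.97) and Elk3 (-0.998) fell just short of it. Against the second normoxia array, 42 genes (1.18%) were higher and 1 (0.028%) was lower, which kept 34 of the 52 and 1 of the 14.

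**Figure D1:**
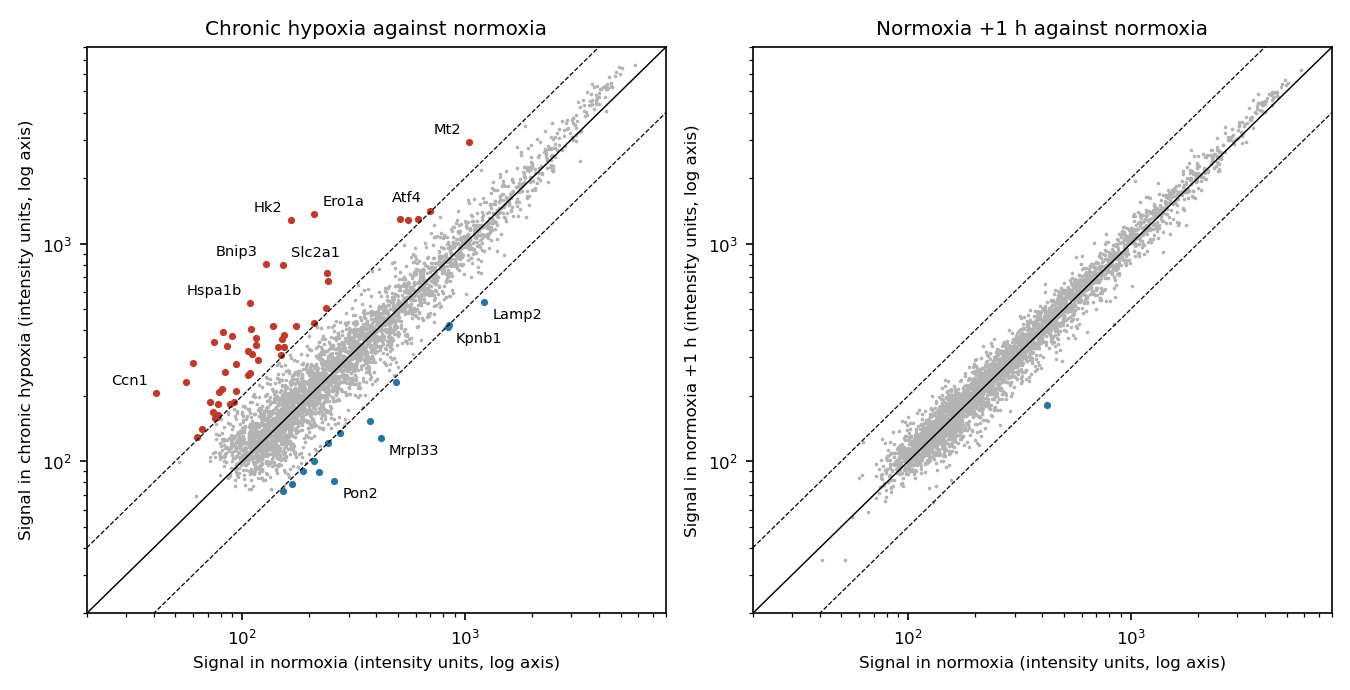
Each point is 1 of the 3573 genes, with its signal in normoxia on the x axis and its signal in chronic hypoxia (left) or normoxia +1 h (right) on the y axis, in intensity units on log axes. Solid lines mark equal signals and dashed lines a 2-fold difference, past which genes are coloured: 52 higher and 14 lower in chronic hypoxia, and 0 higher and 1 lower in the second normoxia array.

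Promoter windows were found in RefSeq (GRCm38.p6) for 44 of the 52 higher genes, 12 of the 14 lower genes and 2975 of the 3573 genes. A window runs from 250 bases before to 50 bases after a start site, and a gene with several windows counted as holding a stretch when any window did. The HIF core with A at its first base, ACGTG on either strand, was in 54.5% of the higher genes, 16.7% of the lower genes and 32.5% of all 3573 with a window, and in 19.6% of all windows. With the form GCGTG counted too, the shares were 93.2%, 83.3% and 72.9%, and 43.8% of all windows. The composite site of C/EBP and ATF factors, TGATGCAA, was in 3 higher genes (6.82%), which were Chac1, Herpud1 and Nupr1, in 0 lower genes and in 0.807% of all, with 0.895% of all windows. The AP-1 site TGACTCA was in 6.82%, 8.33% and 4.17%, and in 5.2% of all windows. A match describes these letters only.

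The 250 bases before the start site are printed for 4 of the higher genes that hold a HIF core, and for Chac1 and Nupr1, targets of the stress response that hold the composite site. They are Hk2 (chr6:82774455-82774704, minus strand), Bnip3 (chr7:138909507-138909756, minus strand), Ero1a (chr14:45318573-45318822, minus strand), Jmjd6 (chr11:116843450-116843699, minus strand), Chac1 (chr2:119350992-119351241, plus strand) and Nupr1 (chr7:126625471-126625720, minus strand), each read 5′ to 3′ towards the gene. Capitals mark ACGTG or GCGTG or their reverse complements in the first 4, and the reverse complement of the composite site in the last pair; a HIF core in those is left in lower case.
Hk2: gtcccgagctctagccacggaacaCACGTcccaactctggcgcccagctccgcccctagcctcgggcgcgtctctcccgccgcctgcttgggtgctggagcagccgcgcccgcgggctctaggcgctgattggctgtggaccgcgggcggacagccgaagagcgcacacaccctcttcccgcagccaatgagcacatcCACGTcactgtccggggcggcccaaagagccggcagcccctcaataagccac
Bnip3: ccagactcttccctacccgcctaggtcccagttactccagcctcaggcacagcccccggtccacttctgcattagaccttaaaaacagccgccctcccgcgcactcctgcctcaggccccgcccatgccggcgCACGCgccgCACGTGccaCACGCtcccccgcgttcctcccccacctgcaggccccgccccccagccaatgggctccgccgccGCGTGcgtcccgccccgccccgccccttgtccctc
Ero1a: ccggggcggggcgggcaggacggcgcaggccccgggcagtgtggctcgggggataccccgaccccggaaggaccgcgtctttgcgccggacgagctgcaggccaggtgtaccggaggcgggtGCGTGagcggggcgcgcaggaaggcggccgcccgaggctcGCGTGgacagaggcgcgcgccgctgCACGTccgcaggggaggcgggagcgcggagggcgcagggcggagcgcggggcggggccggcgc
Jmjd6: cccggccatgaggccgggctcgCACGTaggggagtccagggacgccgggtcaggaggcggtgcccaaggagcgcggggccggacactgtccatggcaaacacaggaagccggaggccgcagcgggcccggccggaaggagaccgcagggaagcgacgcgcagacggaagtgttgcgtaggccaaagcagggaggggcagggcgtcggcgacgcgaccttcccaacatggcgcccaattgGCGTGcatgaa
Chac1: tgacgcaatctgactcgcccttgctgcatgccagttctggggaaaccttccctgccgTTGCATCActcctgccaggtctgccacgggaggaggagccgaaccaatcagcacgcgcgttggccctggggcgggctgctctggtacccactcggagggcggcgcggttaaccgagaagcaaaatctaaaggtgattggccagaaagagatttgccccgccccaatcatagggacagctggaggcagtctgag
Nupr1: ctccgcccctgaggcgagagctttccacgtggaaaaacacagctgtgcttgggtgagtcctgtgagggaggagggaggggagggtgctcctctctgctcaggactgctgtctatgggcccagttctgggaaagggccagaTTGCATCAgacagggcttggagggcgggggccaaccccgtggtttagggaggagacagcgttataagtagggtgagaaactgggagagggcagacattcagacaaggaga
In Hk2 the marked stretches begin 226 and 52 bases before the start, and in Bnip3 4 stretches begin between 117 and 35 bases before it, the second of them reading ACGTG on both strands. In Chac1 and Nupr1 the marked site begins 193 and 110 bases before the start.

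Glucose entry and the first steps of glycolysis stood above normoxia. For each gene below, the first signal of a pair is from the end of the exposure and the second from the collection 1 h later. Hexokinase 2, Hk2, which traps glucose in the cell, had signals of 165 and 164 in normoxia, 1279 and 885 in chronic hypoxia, and 534 and 405 in cyclic hypoxia. The chronic hypoxia signal was 7.74-fold that of normoxia, and the normoxia arrays differed by -0.011 on the log2 scale. Slc2a1, the glucose transporter GLUT1, was at 152 and 175 in normoxia, 793 and 578 in chronic hypoxia, and 385 and 301 in cyclic hypoxia, a difference of 2.38. All 3 of its probe sets with a mean signal of 100 or more gave like values, 2.38, 2.33 and 2.62. Pfkp, the platelet form of phosphofructokinase, was at 115 and 156 in normoxia, 370.1 and 272 in chronic hypoxia, and 241 and 203 in cyclic hypoxia, a difference of 1.68. Pfkl, the liver form, gave 153 and 147 in normoxia, 379.7 and 314 in chronic hypoxia, and 216 and 295 in cyclic hypoxia, a difference of 1.31. For these 4 genes the chronic hypoxia array was the highest of the 6 and both normoxia arrays the lowest. Of 15 glycolytic enzymes on the array 13 had a mean of 100 or more, of which 3 were past 2-fold, 12 were above 0 and the median was 0.38 (0.13 between the normoxia arrays), beside 0.032 over all genes. The exception was Eno3, the muscle enolase, at -0.38. Between the normoxia arrays 10 of the 13 were above 0. Among the switches of pyruvate use, Pdk3 (0.23), Pdhb (0.29), Dlat (0.034) and Pdha1 (-0.081) stayed within 1.5-fold. Pdk1, which inhibits pyruvate dehydrogenase, was too dim for the set of 3573. Pdk1 had signals of 25.0 and 28.1 in normoxia, 152 and 78.8 in chronic hypoxia, and 83.5 and 53.9 in cyclic hypoxia, a difference of 2.61. Glycogen enzymes Ugp2, which makes UDP-glucose, and Pgm1, which links glycogen to glycolysis, were at 0.88 and 0.71, and Pygb, a glycogen phosphorylase, at -0.23. The glycogen list had a median of 0.71 over these 3 and of 0.066 over 9 genes without a filter.

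Several other targets of HIF were among the 20 highest genes. Of 33 on the array 14 had a mean of 100 or more, of which 8 were 2-fold or more higher and 0 lower, with a median of 1.23, 0.066 between the normoxia arrays and 1.34 1 h later against normoxia +1 h. Without a filter on signal the list held 33 genes and its median was 0.92. The mitophagy receptor Bnip3 belonged to a separate list of mitochondrial HIF targets. It was at 127 and 123 in normoxia, 803 and 549 in chronic hypoxia, and 332 and 366 in cyclic hypoxia, a difference of 2.66. Mxi1, which opposes MYC, was at 81.6 and 85.6 in normoxia, 394 and 228 in chronic hypoxia, and 113 and 82.6 in cyclic hypoxia, so that it was high in both chronic arrays and within 1.5-fold of normoxia in both cyclic ones. Sap30, a subunit of the Sin3 corepressor, was at 89.8 and 88.7 in normoxia, 375 and 454 in chronic hypoxia, and 155 and 106 in cyclic hypoxia. Ddit4, the mTORC1 inhibitor also called REDD1, had 106 and 126 in normoxia, 250.2 and 656 in chronic hypoxia, and 128 and 143 in cyclic hypoxia. Bhlhe40, a repressor of the clock, had 144 and 160.5 in normoxia, 335 and 879 in chronic hypoxia, and 199 and 224 in cyclic hypoxia. Sap30, Ddit4 and Bhlhe40 were higher 1 h after chronic hypoxia than at its end, by 0.28, 1.39 and 1.39. Hilpda, which slows lipolysis at lipid droplets, was at 83.5 and 75.1 in normoxia, 258 and 339 in chronic hypoxia, and 88.7 and 99.5 in cyclic hypoxia, and here too only the chronic arrays stood apart. Ccng2, an atypical cyclin, differed by 1.57 and the mitochondrial protein Fam162a by 1.35. The lowest members were the transferrin receptor Tfrc (-0.23) and Wsb1, a ubiquitin ligase subunit (-0.57, but -0.98 between the normoxia arrays). The list of mitochondrial HIF targets had a median of 0.36 over 4 genes, and Bnip3 was the 1 past 2-fold. The mitophagy receptor Fundc1 (0.18), the mitochondrial protein Higd1a (0.55) and the protease Lonp1 (0.14), also on it, did not reach 1.5-fold. The second probe set of Fundc1 was at -0.49, and a dim one of Higd1a, with a mean signal of 47.5, was at 1.27.

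Enzymes that use oxygen as a substrate differed from member to member. Egln1, the main prolyl hydroxylase of HIF, was at 174 and 199 in normoxia, 416 and 404 in chronic hypoxia, and 228 and 249 in cyclic hypoxia, a difference of 1.26, while Hif1a itself was at -0.089. Kdm3a, which removes methyl groups from histone H3 lysine 9, was at 241 and 273 in normoxia, 729 and 883 in chronic hypoxia, and 767 and 363 in cyclic hypoxia. Its first cyclic array was between its chronic arrays. Jmjd6, a lysyl hydroxylase of the JmjC family, was at 85.5 and 76.6 in normoxia, 338 and 241 in chronic hypoxia, and 167 and 140.2 in cyclic hypoxia, and its second probe set differed by 1.91 against 1.98 at the first. Of 18 JmjC genes on the array 3 reached a mean of 100, the third being Kdm2b at 0.32. The median over these 3 was 1.60, and over all 18 without a filter on signal it was 0.33. Plod2, the lysyl hydroxylase of collagen telopeptides, differed by 1.31, and its relative Plod1 by 0.19. The collagen prolyl hydroxylase P4ha2 differed by 2.55 in the dim range (24.0 in normoxia and 140.3 after chronic hypoxia), and its partner subunit P4hb by -0.13. The list of collagen hydroxylases and cross-linking had a median of 0.033 over 4 genes, and of 0.67 over 8 without a filter. Of the RNA demethylases, Alkbh5 differed by 1.09 and Fto by -0.23.

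**Figure D2:**
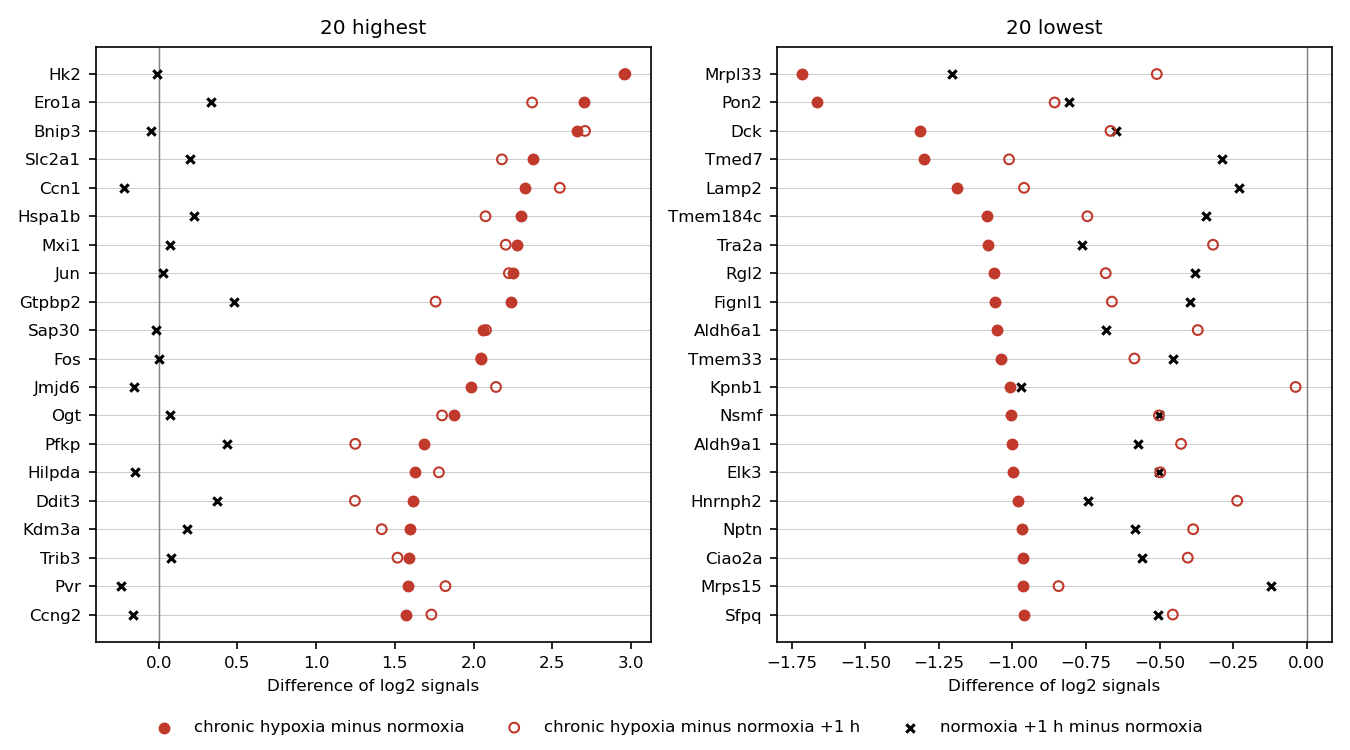
The 20 genes with the highest (left) and lowest (right) differences of log2 signals, with chronic hypoxia minus normoxia as filled circles, chronic hypoxia minus normoxia +1 h as open circles and normoxia +1 h minus normoxia as crosses. The higher genes have filled and open circles far from their crosses, while all 20 lower genes have crosses below 0, from -0.12 for Mrps15 to -1.20 for Mrpl33. Filled circles and crosses share the first normoxia array, which was also used to choose the genes.

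Genes of the integrated stress response with a mean of 100 or more stood above normoxia. Their list was chosen with earlier results of these data known, so the counts describe the list only. Of 33 on the array 23 had a mean of 100 or more, and these 23 were above 0, against 54.7% of the 3573 genes, and 7 were past 2-fold. Between the normoxia arrays 17 of the 23 were above 0, against 59.1% of the 3573 genes. The median of the 23 was 0.68, with 0.13 between the normoxia arrays. Against the second normoxia array 22 were above 0, with a median of 0.49. Atf4, the transcription factor of this response, was at 695 and 811 in normoxia, 1415 and 1387 in chronic hypoxia, and 942 and 1198 in cyclic hypoxia, a difference of 1.03 at its brightest probe set and 0.25 at the next. Ddit3, which encodes the stress factor CHOP, was at 137 and 177 in normoxia, 420.1 and 719.5 in chronic hypoxia, and 156 and 243 in cyclic hypoxia. It was thus higher 1 h after hypoxia than at its end, by 0.78. Trib3, a pseudokinase that dampens ATF4, was at 106 and 112 in normoxia, 320.1 and 338 in chronic hypoxia, and 231 and 339.9 in cyclic hypoxia. Chac1, which degrades glutathione, was at 110.2 and 129 in normoxia, 312 and 293 in chronic hypoxia, and 81.8 and 132 in cyclic hypoxia, high in the chronic arrays alone. Gtpbp2, a GTPase that rescues stalled ribosomes, was at 59.9 and 83.4 in normoxia, 282 and 81.3 in chronic hypoxia, and 204 and 87.7 in cyclic hypoxia, high at the end of both hypoxic regimes and back near normoxia 1 h later. Its other probe sets differed by only 0.29 and 0.57, against 2.24 at the brightest. Nupr1, a stress-induced chromatin protein, differed by 1.24, and Slc3a2, the heavy chain of several amino acid transporters, by 1.21. The serine synthesis genes Phgdh and Psat1, also ATF4 targets, were the lowest of the list at 0.015 and 0.019, and the other bright probe sets of Phgdh ran down to -0.43. Of 14 aminoacyl-tRNA synthetases, which charge tRNAs with amino acids, 10 were above 0 (8 between the normoxia arrays) with a median of 0.38. The highest were Eprs (1.10) and Lars (0.92), which also differed by 0.52 and 0.55 between the normoxia arrays. The other bright probe sets of Eprs were at 0.19 and 0.54.

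The folding and degradation genes of the endoplasmic reticulum lay around 0, with a pair of exceptions. Their median over 24 genes was 0.0091, with 12 above and 12 below 0, and the 2 past 2-fold were Ero1a and Herpud1. Ero1a, the oxidase that drives disulfide formation and a HIF target, was at 209.7 and 264 in normoxia, 1367 and 1223 in chronic hypoxia, and 509 and 203 in cyclic hypoxia. Its 3 probe sets with a mean of 100 or more differed by 2.70, 2.66 and 1.30. Herpud1, part of the degradation machinery, was at 243 and 366 in normoxia, 676 and 647 in chronic hypoxia, and 732 and 1009 in cyclic hypoxia, and the normoxia arrays themselves differed by 0.59. The chaperone Hsp90b1 was at -0.39 and the inhibitor of stress kinases Dnajc3 at -0.70, of which -0.46 lay between the normoxia arrays. Their second probe sets had the opposite sign, at 0.84 and 0.17.

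Immediate-early genes, which respond to growth signals and stress within minutes, differed in size and course. Fos, a partner of Jun in the AP-1 factor, was at 55.6 and 55.7 in normoxia, 230.4 and 264 in chronic hypoxia, and 39.6 and 84.5 in cyclic hypoxia. Jun was at 74.6 and 75.9 in normoxia, 355 and 130.5 in chronic hypoxia, and 103 and 132 in cyclic hypoxia, and its second probe set differed by 1.41 against 2.25. Ccn1, a secreted matrix protein formerly named Cyr61, was at 41.0 and 35.2 in normoxia, 206 and 244 in chronic hypoxia, and 35.2 and 107 in cyclic hypoxia. At the end of the exposure all 3 stood apart in chronic hypoxia alone. Fos and Ccn1 were still at 2.24 and 2.80 1 h later against normoxia +1 h, and Jun at 0.78. Of 12 other immediate-early genes 9 were above 0, with a median of 0.50 (-0.12 between the normoxia arrays), and Ccn1 was the 1 past 2-fold. Egr1, a zinc finger factor, was at 0.92 against the first normoxia array and 1.49 against the second. Ccn1, Fos and Egr1 had mean signals of 100 or more but normoxia signals of 41.0, 55.6 and 52.1, so that they entered the set through their brighter arrays. The phosphatase genes Dusp1 and Dusp16, which switch off MAP kinases, were at 0.68 and 0.78, and Dusp6 at -0.29.

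**Figure D3:**
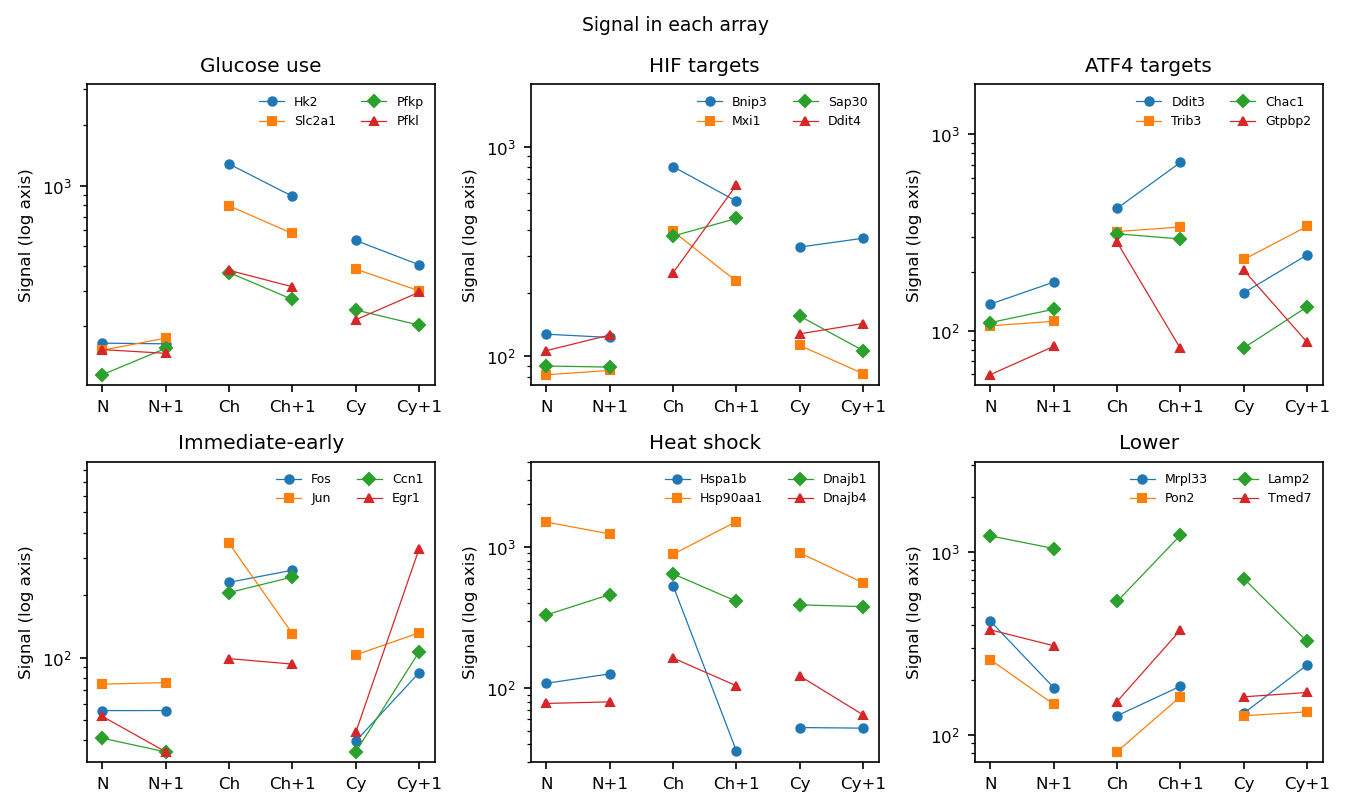
Signals (log axis) of 24 genes in normoxia (N), chronic hypoxia (Ch) and cyclic hypoxia (Cy), when the exposure ended and 1 h afterwards (+1), with 1 array per position and lines that join the 2 collections of a regime. Hk2 and Slc2a1 peak in chronic hypoxia, Ddit4 and Ddit3 are higher 1 h later, Hspa1b goes from 532 to 35.8, and Lamp2 and Tmed7 are near their normoxia signals 1 h after chronic hypoxia.

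Among heat shock genes, Hspa1b stood highest above normoxia. Hspa1b, an inducible cytosolic HSP70, was at 108 and 126 in normoxia, 532 and 35.8 in chronic hypoxia, and 52.5 and 52.0 in cyclic hypoxia. The chronic hypoxia array was the only high one, and 1 h later the signal was the lowest of the 6. Its other probe sets differed by 1.32 and 1.80 against 2.30 at the brightest, and Hspa1a, a near-identical copy, cannot be told apart from it here. The cochaperones Dnajb4 and Dnajb1 differed by 1.07 and 0.97. Hspa1b and Dnajb4, the members past 2-fold, had a mean of 100 or more only with the chronic hypoxia array included. Hsp90aa1, the inducible cytosolic HSP90, was at 1500.3 and 1237 in normoxia, 888 and 1514 in chronic hypoxia, and 909 and 558 in cyclic hypoxia, a difference of -0.76, with -0.28 between the normoxia arrays. Its other bright probe sets went the opposite way, at 0.35 and 0.41, so its direction is not settled here. Stip1, which passes clients from HSP70 to HSP90, was at -0.64 and Dnaja1 at -0.38. Over 14 genes the median was -0.055, with 9 below 0.

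Among genes of metal handling and oxidant defence, single members stood out. Mt2, a metallothionein, was at 1044 and 1938 in normoxia, 2915 and 3439.8 in chronic hypoxia, and 3026 and 4095 in cyclic hypoxia. Every array other than the first normoxia array was high, and the second normoxia array stood 0.89 above the first where chronic hypoxia stood 1.48 above it. Hmox1, which breaks down heme, was at 71.5 and 67.9 in normoxia, 187 and 164 in chronic hypoxia, and 191 and 221 in cyclic hypoxia, above both normoxia arrays in all 4 hypoxia arrays. The genes of NRF2 and antioxidant defence had a median of 0.11 over 21 genes, with Gclm, a subunit of glutathione synthesis, at 0.84 (of which 0.63 between the normoxia arrays) and thioredoxin reductase Txnrd1 at -0.36. Aco1, the iron-sensing aconitase, was at -0.95 and -0.48 in chronic hypoxia and in the second normoxia array, each against the first. Ogt, the enzyme that adds O-GlcNAc to proteins, was at 110.0 and 116 in normoxia, 403 and 343 in chronic hypoxia, and 155 and 46.5 in cyclic hypoxia, a difference of 1.87. The nuclear noncoding RNA Malat1 was at 78.6 and 121 in normoxia, 208 and 113 in chronic hypoxia, and 142 and 10.4 in cyclic hypoxia, with 0.63 between the normoxia arrays. Its next brightest probe sets, with mean signals of 36.5 and 34.4, differed by -0.27 and 0.46 against 1.40 at the brightest. The remaining genes past 2-fold were the poliovirus receptor Pvr at 1.58, and Ppme1, Clcn3, Tnrc6a, Rnf19a, Deptor, Brd2, Pvt1, Hnrnpdl, Bcar1, Grhpr, Ago2, Trio, Med6, Snhg1 and Stam, at 1.02 to 1.41. Of these, Med6, a subunit of Mediator, differed by 0.96 between the normoxia arrays and by 0.087 from the second, and Deptor, an mTOR inhibitor, by 0.72 and 0.46. The next brightest probe set differed by -0.087 for Deptor, 0.094 for Brd2, 0.36 for Pvt1, 0.40 for Hnrnpdl and 0.54 for Snhg1. For Stam, Rnf19a, Bcar1, Pvr and Clcn3 it differed by 0.72, 0.83, 0.997, 1.13 and 1.17.

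The count of lower genes depended on the control, with 14 against the first normoxia array and 1 against the second. The first was the highest of the 6 arrays for 13 of the 14, and all 14 were also lower in the second normoxia array than in the first, with a median of -0.54. Their median was -1.07 against the first and -0.62 against the second normoxia array, and 1, Tmed7, was 2-fold lower against both. Of the 52 higher genes 38 were also higher in the second normoxia array than in the first, with a median of 0.18. Of all 3573 genes 59.1% were so. The first normoxia array was the lowest of the 6 arrays for 29 of the 52. Medians of the 52 were 1.37 against the first and 1.24 against the second normoxia array. Both sets were chosen by their difference from the first normoxia array, which by itself favours an extreme value there. These counts therefore describe the sets only. The part of the control array in either set was not tested. Mrpl33, a protein of the mitochondrial ribosome, was at 419 and 182 in normoxia, 128 and 185 in chronic hypoxia, and 132 and 241 in cyclic hypoxia, so that the first normoxia array was the only high one. Pon2, a lactonase with antioxidant activity, was at 258 and 147 in normoxia, 81.2 and 162 in chronic hypoxia, and 128 and 134 in cyclic hypoxia, the chronic hypoxia array being the lowest. Dck, which phosphorylates deoxycytidine, had 222 and 142 in normoxia, 89.3 and 145 in chronic hypoxia, and 72.4 and 78.8 in cyclic hypoxia. Tmed7, a cargo receptor of the early secretory pathway, was at 376 and 308 in normoxia, 153 and 375 in chronic hypoxia, and 162 and 171 in cyclic hypoxia, low in chronic and in both cyclic arrays and back at its normoxia level 1 h after chronic hypoxia. Lamp2, a membrane protein of lysosomes, was at 1224 and 1045 in normoxia, 537 and 1234 in chronic hypoxia, and 716 and 325 in cyclic hypoxia. The course of Lamp2 in normoxia and chronic hypoxia was like that of Tmed7, but its next brightest probe set differed by 0.021 and others by -0.52 and -0.94, and for Tmed7 these were 0.11, -0.79 and -0.76. Kpnb1, the nuclear import receptor importin beta, was at 836 and 427 in normoxia, 416 and 335 in chronic hypoxia, and 320.0 and 434 in cyclic hypoxia, equal in chronic hypoxia and normoxia +1 h to within -0.038. The other 8 were Tmem184c, Tra2a, Rgl2, Fignl1, Aldh6a1, Tmem33, Nsmf and Aldh9a1, at -1.002 to -1.09. A second probe set with a mean signal of 100 or more existed for 15 of the 52 higher genes, where all 15 had the same sign and 7 were again past 2-fold, with a median of 0.95. It existed for 5 of the 14 lower genes, where 3 had the same sign, 2 the opposite and 0 were past 2-fold, with a median of -0.20.

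Most genes of DNA replication with a mean of 100 or more lay below normoxia, with none past 2-fold. On this list, chosen with earlier results of these data known, 1 dimmer member was 2-fold lower. Of 27 genes of DNA replication and nucleotide synthesis with a mean of 100 or more (37 were on the array) 25 were below 0 against the first normoxia array and 25 against the second, with medians of -0.26 and -0.25. Of all 3573 genes 54.7% were above 0 against the first normoxia array and 47.5% against the second. Between the normoxia arrays 13 of the 27 were below 0 with a median of 0.012. Their median 1 h later against normoxia +1 h was -0.24. The lowest were Mcm10, which helps to start replication forks, at -0.64, and Rfc3, of the clamp loader, at -0.60, and the highest were the sliding clamp Pcna at 0.22 and Orc6 at 0.02. Mcm10 had signals of 142 and 145 in normoxia, 91.3 and 116 in chronic hypoxia, and 79.7 and 88.5 in cyclic hypoxia, so that all 4 hypoxia arrays were under both normoxia arrays. Rfc3 had 236 and 264 in normoxia, 156 and 241 in chronic hypoxia, and 183 and 209 in cyclic hypoxia, which gave a low array at the end of chronic hypoxia and a return 1 h later. Genes of mitosis had a median of 0.026 over 20 genes, between Aurkb at -0.54 and Plk1 at 0.38. The 7 p53 targets had a median of -0.39, with -0.13 between the normoxia arrays, and without a filter on signal the 18 on the array had a median of -0.079. Trp53inp1, which promotes apoptosis and autophagy, was lowest at -0.88, and Cdkn1a, the CDK inhibitor p21, was highest at 0.30. Of 38 cytosolic ribosomal proteins 36 were above 0, and 34 were so between the normoxia arrays. Their median of 0.26 stood beside 0.13 between the normoxia arrays and was 0.0096 after quantile normalization of the arrays. Medians lay near that of all genes for the respiratory chain and ATP synthase (0.091 over 75 genes), mitochondrial ribosomal proteins (0.037), the proteasome (0.082), translation initiation factors (0.097) and sterol synthesis (-0.016). The median of the melanocyte and pigment genes was 0.20 over 16 genes with 0 past 2-fold, beside 0.13 between the normoxia arrays and 0.024 after quantile normalization. The lineage factor Sox10 was at 0.59 (0.066 at its second probe set) and the melanosomal enzyme Tyrp1 at 0.45. The title of the series links hypoxia to metastasis, and the 19 measured genes of invasion and matrix remodelling had a median of 0.19 with 0 past 2-fold, beside 0.15 between the normoxia arrays and 0.014 against the second of them, and it turned to -0.012 after quantile normalization. They ran from the sheddase Adam10 (-0.59, with -0.50 between the normoxia arrays) to the matrix protein Sparc (0.52, with 0.35), whose second probe set was at -0.22.

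**Figure D4:**
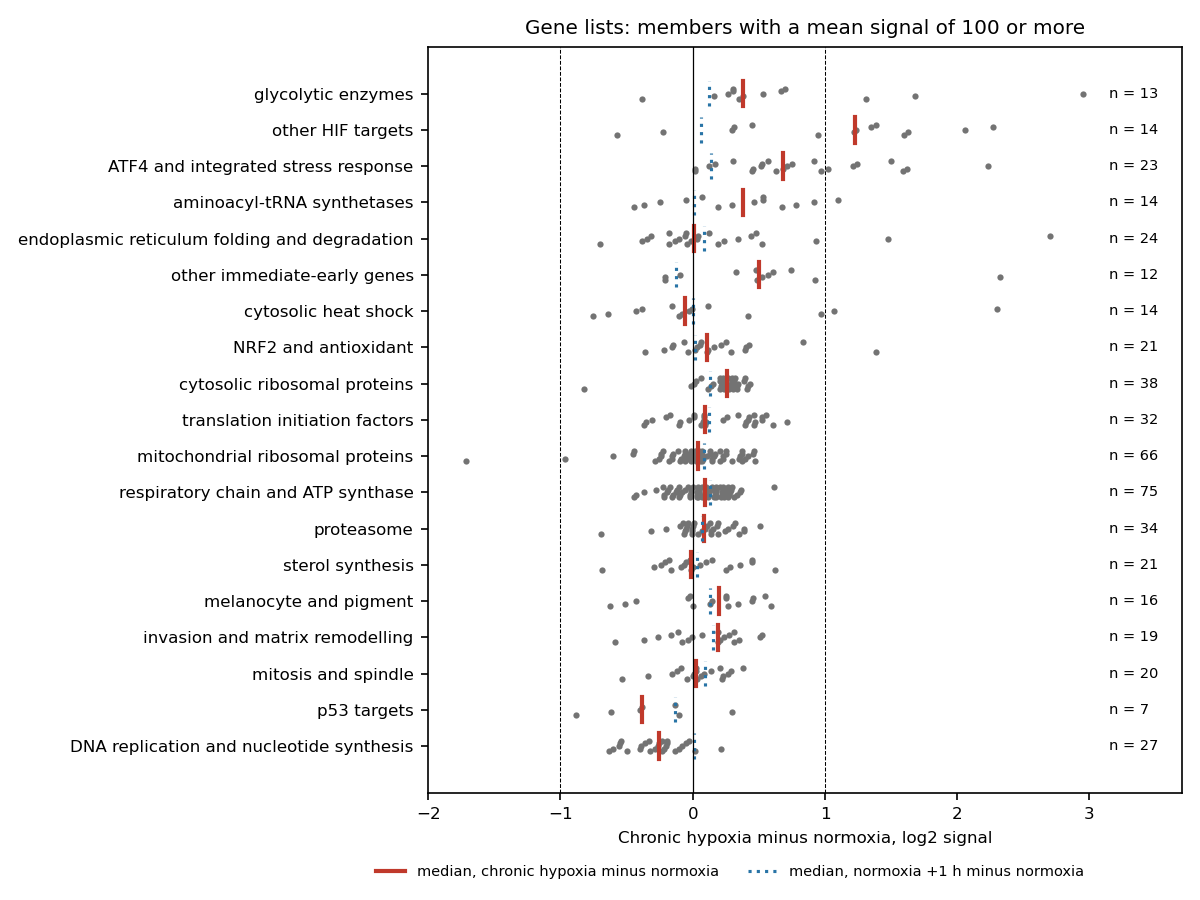
Gene lists, with 1 grey point for each member of a mean signal of 100 or more (number at the right) at its difference of log2 signals, chronic hypoxia minus normoxia; solid bars are the list medians, dotted bars the medians of normoxia +1 h minus normoxia, and dashed lines mark 2-fold. The medians of other HIF targets (1.23) and of the integrated stress response (0.68) lie far to the right of their dotted bars, and that of DNA replication (-0.26) to the left.

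Dim genes added strong differences that the set of 3573 leaves out. Among 1823 genes with a mean signal under 100 but at least 50 in the brighter of the arrays compared, 38 were 2-fold or more higher and 32 lower. Since the brighter of the same arrays admitted them, these counts describe the set and support nothing. Between the normoxia arrays 3 of the 1823 were 2-fold or more higher and 12 lower. Ak4, an adenylate kinase of the mitochondrial matrix, was at 13.0 and 15.4 in normoxia, 259 and 208 in chronic hypoxia, and 55.7 and 26.2 in cyclic hypoxia, 19.9-fold, and its mean of 96.2 kept it just under the limit. Rora, a nuclear receptor of the clock, was at 13.8 and 17.5 in normoxia, 72.2 and 61.0 in chronic hypoxia, and 21.0 and 7.81 in cyclic hypoxia. Atf3, a stress factor downstream of ATF4, was at 21.5 and 25.1 in normoxia, 106 and 41.0 in chronic hypoxia, and 25.2 and 55.4 in cyclic hypoxia, and Ppp1r15a, which restores translation, at 42.4 and 38.8 in normoxia, 131 and 114 in chronic hypoxia, and 81.6 and 106 in cyclic hypoxia. The remaining highest were Rassf1 (1.94, with 0.89 between the normoxia arrays), Plekha2 (1.65), Btg2 (1.62) and the noncoding RNA Neat1 (2.48, with 1.91). Of the 10 lowest, Mxd3, a relative of Mxi1 that is expressed in dividing cells, stood out because the normoxia arrays agreed at 122 and 123 while chronic hypoxia gave 39.8 and 66.4 and cyclic hypoxia 81.8 and 73.1. Its other probe sets were at -0.58 and -0.22 against -1.62 at this one. The other 9, Abcb1b, Csgalnact2, Pkia, Zfp326, Trim21, Itgb3bp, Zfp931, Fam102a and Ung, were at -1.91 to -1.34 and were all lower in the second normoxia array as well, at -0.25 to -1.10.

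The later arrays, which share no array with the comparison above, gave many of the same higher genes. One hour after chronic hypoxia 38 genes (1.06%) were 2-fold or more above normoxia +1 h and 2 (0.056%) below it. There were 26 genes in both higher sets, 50% of the 52 and 68.4% of the 38, and 0 in both lower sets. Of the 52, 48 were still above 0 with a median of 1.01, 14 had come within 1.5-fold, and Hspa1b was 2-fold lower. Genes still far above were Ccn1 (2.80), Bhlhe40 (2.45), Hk2 (2.43), Ddit4 (2.38) and Sap30 (2.36). Genes that had come back were Gtpbp2 (-0.036), Brd2 (0.0055), Malat1 (-0.10) and Tnrc6a (-0.27). All 14 lower genes were within 1.5-fold of normoxia +1 h at that time, with a median of 0.029. So were most genes: of the 3573, 107 were 1.5-fold or more above normoxia +1 h and 66 below it. With its gaps, cyclic hypoxia took longer than the 3 h in normoxia, and the part of that extra time was not tested. Cyclic hypoxia was set against the same normoxia array, so its values are given beside those of chronic hypoxia with no measure of agreement. For Hk2, Slc2a1 and Bnip3 they were 1.69, 1.34 and 1.38, for Kdm3a and Hmox1 1.67 and 1.42, and for Ccn1, Fos and Chac1 -0.22, -0.49 and -0.43.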

How the data were processed

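Biotin-labelled cRNA from 5 µg of total RNA was hybridised to Affymetrix arrays, per the labels' protocols. The values are signal intensities on a linear scale, made by the authors with GCOS, per the submitters' processing notes; its version and algorithm are not given in the sources used here. No counts or detection calls were used, so precision is limited by the number of arrays. Signals under 2.1 were set to 2.1 before log2 was taken. Probe sets naming 1 gene were kept (20351 under a current and 29 under an old symbol), and those naming several (691) or none (1555) and 64 controls left out. Genes were represented by their brightest probe set. No test was possible with 1 array per group, and differences are described by counts and medians.

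The members and the 54 gene lists (1582 genes) were chosen with earlier results of these data known. Named genes are the 20 highest and 20 lowest of the 3573, list members past 2-fold, the 2 highest and 2 lowest of each list, and the 10 highest and 10 lowest dim genes. Other genes past 2-fold and those of the later collection in the closing section were named after their values were seen. Alternatives covered scaling, control array, probe set, floor, filter and fold. The computation was tested on simulated signals. Python 3.11.15, numpy 2.4.6, pandas 2.3.3 and matplotlib 3.10.9 were used.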

Additional observations from a re-analysis of the deposited data

Results flagged for a closer look

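Hspa1b stood on opposite sides of its controls. It was at 2.30 after chronic hypoxia against normoxia, at -1.81 (signal 35.8 against 126) 1 h later against normoxia +1 h, and at -1.04 (signal 52.5 against 108) after cyclic hypoxia. Each value comes from a single array on each side, the cyclic value shares the normoxia array with the chronic one, and the differences were not tested. Neat1, a noncoding RNA of nuclear paraspeckles, was at 2.48 after chronic and -1.38 after cyclic hypoxia, with signals of 9.9 and 37.1 in normoxia, 55.1 in chronic and 3.79 in cyclic hypoxia. That difference was not tested either, and all of its signals are dim.

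Among probe sets outside the gene counts, 2 with a mean signal of 100 or more stood past 2-fold against both normoxia arrays. The first, which names no gene in the annotation used, was at 1.15, and the other, which names several genes, was at -1.04.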

How the results depend on the processing

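The count of 52 higher genes lay between 42 and 77 with quantile normalization, median centring, either other control, the mean over probe sets, a floor of 16, 16 units added, a mean signal of 50 or more, 100 or more in either array, and, chosen after seeing the data, a mean of 100 or more over the 5 other arrays (44, which left out 8 genes that passed through the chronic hypoxia array). It was 24 at a mean of 200 or more, 767 without a filter, 183 at 1.5-fold and 18 at 3-fold. The count of 14 lower genes was 10 to 17 with quantile normalization, median centring, the mean over probe sets, a floor of 16 and the 5 other arrays. It was 1 against the second normoxia array, 4 against the mean of both, 6 with 16 units added, 31 at a mean of 50 or more, 6 at 200 or more, 22 with 100 or more in either array, 935 without a filter, 117 at 1.5-fold and 2 at 3-fold. Higher genes made up 78.8% of those past 2-fold, 97.7% against the second normoxia array, 91.7% against both and 45.1% without a filter. No named gene or list median past 2-fold changed sign under these settings. Against the second normoxia array 118 of 239 named genes moved by more than the SD between the normoxia arrays, 0.21. Of 46 list medians 0 to 5 moved by more than that under the settings with a filter, and 8 without one. No paired analysis was possible because each group had 1 array. Signal over background limits genes under 100 units, where the normoxia arrays alone differed 2-fold at 521 higher and 987 lower of 8820 genes.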

Other observations

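Of the 3573 genes, 12 were 2-fold or more above normoxia +1 h in the array collected 1 h after chronic hypoxia but less than 2-fold above normoxia at its end. Some were also high in cyclic arrays, and those described here were chosen after their values were seen. Ier3, an early response gene that affects cell survival, had signals of 378 and 430.1 in normoxia, 577 and 1846 in chronic hypoxia, and 623 and 909 in cyclic hypoxia. It stood at 0.61 at the end of hypoxia and at 2.101 1 h later against normoxia +1 h. Myc, the growth-promoting transcription factor, stood at 0.48 and 1.11. Ddr1, a collagen receptor kinase, stood at -0.50 and 1.38, and the normoxia arrays differed there by -0.74. Wsb1, a HIF target, stood at -0.57 and 1.48, with -0.98 between the normoxia arrays. The nuclear receptor Nr4a1 (0.57 and 1.17), the phosphatase Dusp1 (0.68 and 1.02) and the receptor kinase inhibitor Spry2 (-0.022 and 1.01) are genes induced by growth signals. From the end of chronic hypoxia to 1 h later they differed by 0.27, 0.21 and 0.66, and their normoxia arrays differed by -0.33, -0.14 and -0.37. The remaining 5 were Rsrp1, Egr1, Tiparp, Tcf7l1 and Nckap5l. Egr1 and Tcf7l1 differed by -0.087 and 0.0074 between the chronic arrays, 1 h of reoxygenation over the end of hypoxia, and their normoxia arrays differed by -0.57 and -0.79. Rsrp1 was at 1.89 after cyclic hypoxia against normoxia. No difference between the collections was tested.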
